A study of Mus musculus with 6 samples.

Results

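This comparison covers circular RNAs (circRNAs) before and after white adipogenesis. The 2 libraries of day 8 (D8) were set against the 2 libraries of day 0 (D0) across all 3662 circRNAs of the table, that is 4 of the 6 libraries of the series. The 2 libraries of day 4 (D4) entered the fit to estimate the spread and give no result of their own. All libraries came from stromal vascular fraction (SVF) cells, the mixed cells that are left of a fat pad once the adipocytes are removed. The SVF was taken from the inguinal white adipose tissue (WAT) of female C57BL/6 mice (C57BL/6J in the authors' methods) that were 6 weeks old, and the labels name no engineered allele. D0 cells had been grown to near confluence and had received none of the adipogenic agents. D8 cells had received insulin, dexamethasone (a glucocorticoid) and the phosphodiesterase inhibitor 3-isobutyl-methylxanthine for 4 days, and insulin with the thyroid hormone T3 for another 4 days. The cells are a primary mixture, and SVF can also hold endothelial cells, pericytes and leukocytes. The labels do not say whether the replicates of a stage came from separate mice or cultures, so p-values measure only the spread between these libraries.

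A circRNA forms when the end of an exon is spliced back to the start of the same exon or of an earlier one, which closes the RNA into a ring without free ends. Its parental gene is the gene whose exons it holds. Circles resist the exonuclease RNase R, which degrades linear RNA, and a read that crosses the back-splice junction identifies a circle. During adipogenesis, fibroblast-like preadipocytes stop dividing, switch on PPARγ and other lipogenic factors and fill with triglyceride. Reads across the junction were counted, and a level is given in circCPM, which scales these counts to 1000000 circRNA reads in each library. circCPM is a share of the circRNA reads, so it says nothing of the amount of circRNA per cell. Since linear RNA was removed, altered transcription of a parental gene and altered circle formation cannot be told apart, nor can more cells of a type and more RNA per cell.

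The D0 libraries held 30110 and 32310 circRNA reads and the D8 libraries 45371 and 50672, so 1 read was worth 33.2 and 31.0 circCPM on D0 and 22.0 and 19.7 circCPM on D8. The table holds 0 values of exactly 1 read, so a circRNA listed at 0 may have had a single read. Where both libraries of a stage were at 0, the change is given as a bound against 3 reads over that stage. The libraries carry no molecular identifiers, so such bounds and intervals cover counting error only. Of the 19 listed marker genes of mature adipocytes, 4 gave circRNAs, 13 in number. They summed to 0 and 155 circCPM on D0 and to 2491 and 3059 on D8. Of the 13, 0 reached 2 reads in both D0 libraries, so they entered the table through a later stage. Their sums therefore cannot check the labelled stage. They include the circles of Pparg and Ghr given below. The preadipocyte markers were represented by circPdgfra(2-3) alone, with 8 and 10 reads on D0 and 4 and 5 on D8. The markers of brown and beige adipocytes gave 2 circRNAs, which summed to 465 and 186 circCPM on D0 and to 132 and 276 on D8, with stages that overlapped. No circRNA came from the listed markers of pericytes, mesothelial cells or skeletal muscle. Those of macrophages and other leukocytes, Adgre1 and Mertk, summed to 66.4 and 186 circCPM on D0 and to 771 and 474 on D8. Ldb2, the only endothelial marker with a circRNA, stood at 66.4 and 0 circCPM on D0 and at 220.4 and 217 on D8. The part of these cells in the results was not tested.

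In this comparison 21 circRNAs changed between D0 and D8 at an adjusted p under 0.05, of which 17 were higher and 4 lower on D8. They are 1.49% of the 1407 circRNAs with enough reads to be tested (1.21% higher and 0.284% lower). The test was the quasi-likelihood F-test of edgeR. A circRNA is named here by its parental gene and by the first and last exon joined, so that circEgfr(14-15) joins the end of exon 15 of Egfr back to the start of exon 14. Exons are numbered in the annotated transcript chosen for each circle, so equal numbers in 2 circles of a gene need not be the same exon. Among the circRNAs higher on D8 were circles of metabolic genes (Acss3, Mlxipl, Selenbp1, Bckdhb, Gbe1), of glucocorticoid-responsive genes (Fkbp5, Zbtb16) and of receptors and transporters (Egfr, Tgfbr2, Slc1a5). The circRNAs lower on D8 were circCacna1c(2-3), circNsd2(3-4), circSlc7a11(2-6) and circPdlim5(4-9). In each of the 21, both D8 libraries lay on the same side of both D0 libraries, which over the whole table held for 25.1% of the circRNAs upward and for 26.3% downward.

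The count of 21 rests on the spread of all 6 libraries. With the D0 and D8 libraries alone, edgeR called 0 circRNAs, with 204 at an unadjusted p under 0.05 and a smallest adjusted p of 0.0893, whereas DESeq2's Wald test on 6 libraries called 51, all 21 among them. Without either D4 library there were 11 calls, 10 of them shared with the 21. Leaving out circRNAs that stood at 0 in 1 replicate and at 15 reads or more in the other gave 89 calls, again with all 21. With the replicate number as a block 4 of the 21 passed, namely circEgfr(14-15), circAcss3(3-5), circCped1(11-15) and circCacna1c(2-3). Without D0 replicate 1 the calls of the circles of Slc1a5, Tgfbr2, Fndc3b, Nsd2, Arhgap10 and Bmper were lost (adjusted p up to 0.0695), and without D0 replicate 2 those of Gbe1, Slc7a11, Slc1a5, Svep1, Arhgap10, Bmper and Bckdhb (up to 0.0735). Without D4 replicate 1 (up to 0.0972) or D4 replicate 2 (up to 0.0971) the circles of Gbe1, Slc1a5, Srgap1, Zbtb16, Tgfbr2, Fndc3b, Nsd2, Svep1, Arhgap10, Bmper and Bckdhb were lost. Without D8 replicate 1 those of Gbe1, Fndc3b, Nsd2, Svep1, Arhgap10 and Bckdhb were lost (up to 0.126), and without D8 replicate 2 those of Slc1a5, Srgap1, Tgfbr2, Nsd2, Svep1, Arhgap10, Bmper and Bckdhb (up to 0.124). Of the 21, 9 stayed past the threshold without each library in turn, namely circEgfr(14-15), circAcss3(3-5), circAcss3(3-7), circCped1(11-15), circCacna1c(2-3), circMlxipl(3-7), circFkbp5(2-2), circPdlim5(4-9) and circSelenbp1(6-7).

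**Figure D1:**
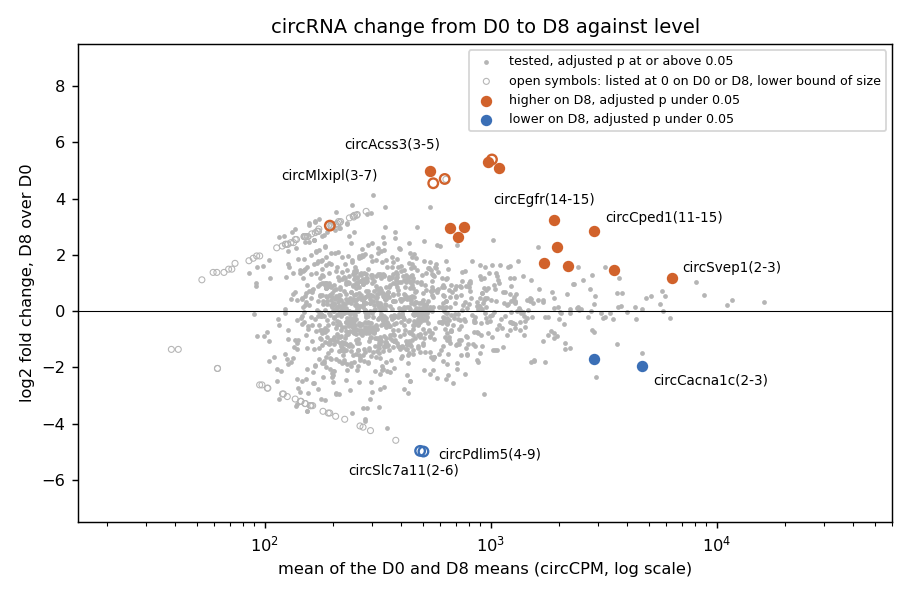
Change from D0 to D8 against level for the circRNAs tested. The x axis is the average of the D0 and D8 means in circCPM on a log scale and the y axis the log2 fold change, where open symbols are circRNAs listed at 0 in both libraries of a stage, drawn at their lower bound of size. Orange symbols are the 17 circRNAs higher on D8 and blue symbols the 4 lower on D8 at an adjusted p under 0.05, and most of the 1407 lie near 0.

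The back-splice junctions of these circles are shown because each is the only stretch of sequence that tells the circle from the linear transcript. All sequences were read from the mouse build NCBIM37 (mm9) on the strand of the gene. The lower-case bases end the last exon of the circle and the capitals begin its first exon. circEgfr(14-15) at chr11:16781467-16783616 (plus strand) is a coding circle of 249 bases, and circSlc1a5(2-4) at chr7:17371025-17372261 (plus strand) is one of 130 bases.
circAcss3(3-5), chr10:106482269-106490572, minus strand: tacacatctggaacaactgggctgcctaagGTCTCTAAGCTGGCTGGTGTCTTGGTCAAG
circAcss3(3-7), chr10:106460710-106490572, minus strand: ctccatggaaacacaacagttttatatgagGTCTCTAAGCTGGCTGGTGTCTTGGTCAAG
circMlxipl(3-7), chr5:135597376-135599887, plus strand: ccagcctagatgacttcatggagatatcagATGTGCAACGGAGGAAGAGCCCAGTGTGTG
circSelenbp1(6-7), chr3:94743568-94744148, plus strand: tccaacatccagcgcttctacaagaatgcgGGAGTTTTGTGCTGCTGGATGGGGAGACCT
circCped1(11-15), chr6:22082229-22095687, plus strand: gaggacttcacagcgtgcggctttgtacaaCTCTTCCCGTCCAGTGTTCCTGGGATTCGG
circFkbp5(2-2), chr17:28644181-28644414, minus strand: agttggcattcccagGTCCTTAGGATTCTG
circCacna1c(2-3), chr6:119002619-119007533, minus strand: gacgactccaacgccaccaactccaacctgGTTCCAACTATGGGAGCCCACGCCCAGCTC
circSlc7a11(2-6), chr3:50221910-50242837, minus strand: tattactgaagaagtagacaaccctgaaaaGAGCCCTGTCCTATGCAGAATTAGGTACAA
circPdlim5(4-9), chr3:141966907-141977412, minus strand: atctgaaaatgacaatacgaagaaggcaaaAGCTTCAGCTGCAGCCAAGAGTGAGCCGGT
Both circles of Acss3 share the capitals, since both begin with exon 3 and differ in the exon that closes them. circFkbp5(2-2) is a single exon of the 5′ untranslated region, and the other 8 circles shown here hold coding exons only.

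The circles of Egfr and Slc1a5 are short enough to be shown whole, starting at the base after the back-splice, with alternate exons in capitals and lower case. In circEgfr(14-15) exon 14 gives the first 91 bases and exon 15 the other 158. In circSlc1a5(2-4) the exons 2, 3 and 4 give 43, 45 and 42 bases.
circEgfr(14-15): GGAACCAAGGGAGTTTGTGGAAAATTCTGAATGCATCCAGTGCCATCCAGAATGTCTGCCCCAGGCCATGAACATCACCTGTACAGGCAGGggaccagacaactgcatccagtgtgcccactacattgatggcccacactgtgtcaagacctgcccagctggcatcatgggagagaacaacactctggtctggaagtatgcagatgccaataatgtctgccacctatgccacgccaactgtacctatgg
circSlc1a5(2-4): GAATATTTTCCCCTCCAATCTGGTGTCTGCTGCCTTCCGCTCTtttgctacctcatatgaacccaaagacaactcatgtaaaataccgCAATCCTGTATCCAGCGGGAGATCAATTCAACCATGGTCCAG

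The 4 circles of Acss3, Mlxipl and Selenbp1 that rose had 0 to 4 reads in each D0 library. Acss3 encodes a mitochondrial acyl-CoA synthetase that prefers propionate. circAcss3(3-5) had 0 and 0 reads on D0 and 99 and 95 on D8, at least 42.0-fold higher on D8 (adjusted p = 0.00462). circAcss3(3-7) had 0 and 0 reads on D0 and 60 and 60 on D8, at least 26.0-fold higher (adjusted p = 0.0269). The other 4 circles of Acss3 were also listed at 0 in both D0 libraries and had reads in both D8 libraries, from 3 and 2 for circAcss3(9-11) to 17 and 25 for circAcss3(2-5). Mlxipl encodes ChREBP, a glucose-responsive transcription factor of lipogenesis. circMlxipl(3-7) had 0 and 0 reads on D0 and 43 and 65 on D8, at least 23.4-fold higher (adjusted p = 0.0269). Selenbp1 encodes a selenium-binding protein that oxidises methanethiol. circSelenbp1(6-7) had 0 and 4 reads on D0 and 116 and 84 on D8, a log2 fold change of 5.08 ± 0.83 (SE, adjusted p = 0.0329). In these 4 circRNAs the lowest D8 library stood far above the highest D0 library.

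Circles of Bckdhb and Gbe1 rose from higher D0 levels. Bckdhb encodes the E1 beta subunit of the branched-chain keto acid dehydrogenase. circBckdhb(4-8) had 41 and 29 reads on D0 and 162 and 149 on D8, and rose from 1129.6 ± 328 to 3256 ± 446 circCPM (SD, n = 2; log2 fold change 1.62 ± 0.30 SE, adjusted p = 0.0498). Gbe1 encodes the glycogen branching enzyme. circGbe1(4-7) had 25 and 19 reads on D0 and 168 and 139 on D8, and rose from 709 ± 171 to 3223 ± 679 circCPM (log2 fold change 2.28 ± 0.34, adjusted p = 0.0309). Both pairs of libraries stood apart.

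Fkbp5 and Zbtb16, which glucocorticoid receptor signalling is known to induce, both gave circles that rose. FKBP5 is a co-chaperone of the receptor. circFkbp5(2-2) had 0 and 3 reads on D0 and 93 and 88 on D8, a ratio of 39.2 with an exact 95% counting interval of 13.2 to 192 (adjusted p = 0.0309). Zbtb16 encodes the zinc-finger repressor PLZF. circZbtb16(2-4) had 2 and 0 reads on D0 and 47 and 53 on D8, a ratio of 32.5 with an interval of 8.76 to 272 (adjusted p = 0.0329). The 2 groups of libraries were separate in both circles, and the call of circZbtb16(2-4) was lost without either D4 library (adjusted p = 0.0503 and 0.0545).

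Among receptors and transporters, Egfr gave the lowest p of the comparison. The epidermal growth factor receptor is a tyrosine kinase of the cell surface. circEgfr(14-15) had 13 and 11 reads on D0 and 145 and 187 on D8, and rose from 386 ± 64.6 to 3443 ± 349.7 circCPM (log2 fold change 3.24 ± 0.29, adjusted p = 0.00462). Tgfbr2 encodes the type II receptor of TGF-β. circTgfbr2(2-3) had 3 and 7 reads on D0 and 45 and 68 on D8, and rose from 158 ± 82.7 to 1167 ± 248 circCPM (log2 fold change 2.94 ± 0.48, adjusted p = 0.0329). Its log2 fold change was 2.54 without D0 replicate 1 and 3.62 without D0 replicate 2. Slc1a5 encodes a carrier that takes up glutamine and other neutral amino acids. circSlc1a5(2-4) had 5 and 6 reads on D0 and 54 and 76 on D8, and rose from 176 ± 13.9 to 1345 ± 219 circCPM (log2 fold change 3.00 ± 0.48, adjusted p = 0.0329). Another amino acid carrier went the other way. Slc7a11 encodes the cystine and glutamate exchanger xCT, and circSlc7a11(2-6) had 28 and 33 reads on D0 and 0 and 0 on D8, at least 31.3-fold lower (adjusted p = 0.0309). The call of circSlc7a11(2-6) was lost without D0 replicate 2 (adjusted p = 0.0507).

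Genes of the extracellular space and the cytoskeleton gave circles in both directions. Svep1 encodes a large secreted adhesion protein. circSvep1(2-3), the most abundant of the 21, had 130 and 122 reads on D0 and 424 and 399 on D8, and rose from 4047 ± 383 to 8609.7 ± 1040.2 circCPM (log2 fold change 1.18 ± 0.21, adjusted p = 0.0471). Cped1 encodes a little-studied protein with a cadherin-like domain, and circCped1(11-15) rose from 21 and 25 reads to 281 and 195 (log2 fold change 2.86 ± 0.33, adjusted p = 0.0137). Bmper encodes a secreted binding protein of BMPs. circBmper(3-6) had 0 and 0 reads on D0 and 12 and 26 on D8, at least 8.23-fold higher (adjusted p = 0.0498). The lower D8 library of circBmper(3-6) thus rests on 12 reads.

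Srgap1 and Arhgap10 encode GTPase-activating proteins. circSrgap1(2-3) rose from 59 and 65 reads to 203 and 288 (log2 fold change 1.45 ± 0.23, adjusted p = 0.0329), and circArhgap10(16-18) from 22 and 31 to 129 and 118 (log2 fold change 1.70 ± 0.31, adjusted p = 0.0488). Fndc3b encodes a membrane protein with fibronectin type III domains, and circFndc3b(2-4) rose from 4 and 9 reads to 61 and 57 (log2 fold change 2.65 ± 0.44, adjusted p = 0.0343). Its log2 fold change was 2.27 without D0 replicate 1 and 3.30 without D0 replicate 2. The most abundant circle of Fndc3b, circFndc3b(2-3), had 51 and 109 reads on D0 and 116 and 122 on D8 (log2 fold change 0.07 ± 0.34, adjusted p = 0.946). Pdlim5 encodes a PDZ and LIM domain protein that binds actinin. circPdlim5(4-9) had 44 and 18 reads on D0 and 0 and 0 on D8, at least 31.8-fold lower (adjusted p = 0.0329). The D0 libraries of circPdlim5(4-9) differed widely from each other, and its call held without either. The call of circArhgap10(16-18) was lost without any 1 of the 6 libraries (adjusted p up to 0.108).

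A calcium channel and a chromatin gene gave the abundant circles that fell. Cacna1c encodes the pore subunit of an L-type calcium channel. circCacna1c(2-3) had 206 and 267 reads on D0 and 84 and 91 on D8, and fell from 7553 ± 1006 to 1824 ± 39.3 circCPM (log2 fold change -1.95 ± 0.25, adjusted p = 0.0245). Nsd2 encodes a histone H3 lysine methyltransferase. circNsd2(3-4) had 162 and 115 reads on D0 and 60 and 62 on D8, and fell from 4469.8 ± 1288 to 1273 ± 69.9 circCPM (log2 fold change -1.72 ± 0.30, adjusted p = 0.0423). The libraries of D0 and D8 did not overlap in either.

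**Figure D2:**
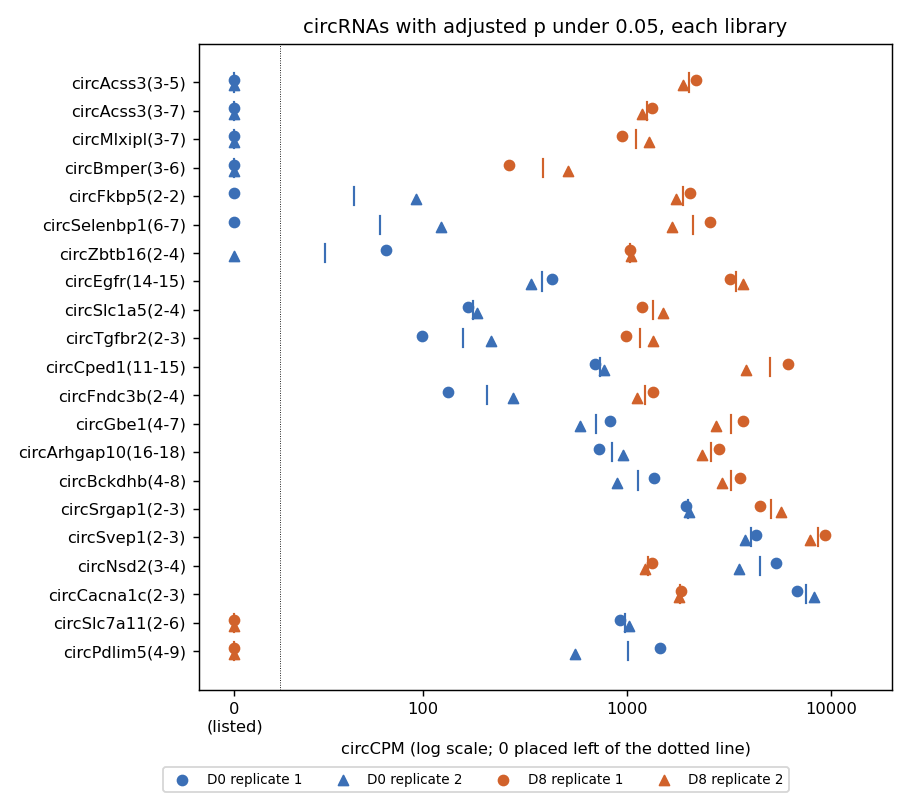
Level of the 21 circRNAs with an adjusted p under 0.05 in each D0 (blue) and D8 (orange) library, in circCPM on a log scale, with values of 0 drawn left of the dotted line. Points are replicate 1, triangles replicate 2 and vertical bars the means of 2 libraries, and the D0 and D8 symbols of each circRNA do not overlap.

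The 5 circRNAs next to the threshold on each side show where the calls end. Above D0 these were circSlc10a7(2-10), circFbn2(5-7), circAdgrd1(16-19), circMicall1(2-3) and circPcsk5(6-7), with adjusted p from 0.0555 to 0.0600. circSlc10a7(2-10) had 10 and 5 reads on D0 and 46 and 68 on D8. circFbn2(5-7), from a gene of an extracellular microfibril protein, had 5 and 15 reads on D0 and 89 and 76 on D8. The other 3 were listed at 0 in both D0 libraries and had 16 to 28 reads in each D8 library. Below D0 were circMegf8(2-8), circZmiz1(4-6), circPrrc1(2-4), circStk35(3-3) and circDlg5(2-4), with adjusted p from 0.0555 to 0.0822. circMegf8(2-8) had 16 and 17 reads on D0 and 0 and 0 on D8, and circZmiz1(4-6), from a coregulator gene, had 26 and 42 on D0 and 7 and 11 on D8. All 10 kept both stages apart in these 4 libraries, by which they were also ranked. Over the whole table this held for 25.1% of the circRNAs upward and for 26.3% downward.

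The circRNAs with the highest mean level over D0 and D8 did not pass the threshold. circNfix(2-2), from a gene of the nuclear factor I family, had 575 and 343 reads on D0 and 881 and 786 on D8 (log2 fold change 0.33 ± 0.30, adjusted p = 0.589). circPvt1(2-2), a circle of a long non-coding RNA, had 235 and 422 reads on D0 and 516 and 740 on D8 (log2 fold change 0.41 ± 0.27, adjusted p = 0.462). circHipk3(2-2), from a kinase gene, had 311 and 360 reads on D0 and 608 and 497 on D8 (log2 fold change 0.21 ± 0.21, adjusted p = 0.630). In circCPM the stages of these 3 overlapped. circMettl9(2-4) had 173 and 288 reads on D0 and 475 and 510 on D8 (log2 fold change 0.58 ± 0.24, adjusted p = 0.237). circMed13l(2-2), from a Mediator kinase module gene, had 135 and 215 reads on D0 and 515 and 510 on D8 (log2 fold change 1.04 ± 0.24, adjusted p = 0.0854). In these 2 the D8 libraries lay above the D0 libraries.

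Grouped by function, circRNAs of adipocyte factor and lipid genes had the largest ratio of D8 to D0 sums among 12 gene lists. This list had 47 circRNAs of 22 parental genes, whose summed level was 2657 and 2693 circCPM on D0 and 16464 and 14525 on D8. Of the 47, 33 were listed at 0 in both D0 libraries and 5 in both D8 libraries. Both D8 libraries lay above both D0 libraries in 32 (68.1%), against 25.1% over the whole table, and below them in 5 (10.6%), against 26.3%. Of 16 tested, 4 rose and 0 fell, all 4 named above (Acss3 with 2, Mlxipl and Selenbp1). Over all circRNAs tested 1.21% were higher and 0.284% lower. The list was chosen with earlier results of these data known, and the authors had reported changed circRNAs of Acss3 and Selenbp1. These counts therefore describe the list and do not test it. Without Acss3, the gene with most reads there, the list summed to 2657 and 2693 circCPM on D0 and to 12078 and 10519 on D8. The median log2 fold change of the 16 was 6.14 as fitted and 2.58 with 9 of them at their bound, against 0.05 over all circRNAs tested. The number called ranged from 0 to 6 over the alternatives.

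The other metabolic and hormone lists also had higher sums on D8. The 36 circRNAs of branched-chain amino acid, propanoate, fatty acid oxidation and citrate cycle enzymes summed to 10927 and 10461 circCPM on D0 and to 19131 and 18057 on D8. Of 18 tested, 3 rose and 0 fell (the pair from Acss3, which is in both lists, and circBckdhb(4-8)), with a median log2 fold change of 1.0, and 0 to 5 rose over the alternatives. The 15 circRNAs of glycogen, glucose and pentose phosphate enzymes summed to 4052 and 3621 circCPM on D0 and to 9081 and 8289 on D8. Of 9 tested, circGbe1(4-7) was the 1 that rose (0 to 2 over the alternatives), the median log2 fold change was 1.13, and circPhkb(3-8), from a phosphorylase kinase gene, had 18 and 18 reads on D0 and 74 and 58 on D8 (adjusted p = 0.105). The 64 circRNAs of genes that respond to or transmit cAMP, glucocorticoid, insulin or thyroid hormone summed to 17469 and 19096 circCPM on D0 and to 31253 and 31319 on D8. Of 32 tested, 2 rose (Fkbp5 and Zbtb16; 0 to 5 over the alternatives) and 0 fell, with a median log2 fold change of 1.24. Over all circRNAs tested 1.21% rose and 0.284% fell. The D0 and D8 sums of these 3 lists did not overlap.

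The lists of calcium genes and of cell division genes had lower sums on D8, the former through Cacna1c. The 26 circRNAs of calcium channels, stores and kinases summed to 13517 and 16063 circCPM on D0 and to 5973 and 5486 on D8. Cacna1c alone gave 10528 and 13278 circCPM on D0 and 2843 and 3256 on D8, and without it the list summed to 2989 and 2786 circCPM on D0 and to 3130 and 2230.0 on D8. Of 10 tested, 0 rose and 1 fell, with a median log2 fold change of -1.59, against 1.21% higher and 0.284% lower over all circRNAs tested. Over the alternatives 0 to 1 rose and 0 to 2 fell. Of these 10, 5 came from Cacna1c, and the median of the other 5 was 0.60. Over the 7 genes tested on summed reads the median was 0.58. In a second L-type channel gene, circCacna1d(2-3) had 0 and 0 reads on D0 and 13 and 12 on D8 (adjusted p = 0.0889). On the summed reads of its 2 circles, Cacna1d rose from 0 and 0 to 17 and 17 (at least 7.37-fold, adjusted p = 0.0188). That call was kept in 8 of 12 alternatives. Of the 7 genes, 1 rose (Cacna1d) and 1 fell (Cacna1c), against 4.51% higher and 1.99% lower over all genes tested. The 98 circRNAs of DNA replication, DNA repair and cell division genes summed to 26602 and 29155 circCPM on D0 and to 17434 and 19379.5 on D8. Both D8 libraries lay below both D0 libraries in 39 (39.8%), against 26.3% over the table, and above them in 14 (14.3%), against 25.1%. Of 35 tested 0 passed edgeR's threshold in either direction (0 to 1 higher and 0 to 2 lower over the alternatives), the median log2 fold change was -0.75, and at an unadjusted p under 0.05 there were 8 lower and 2 higher. Over all circRNAs tested, 7.75% were lower and 11.1% higher at that unadjusted p. circBub1b(16-17), from a spindle checkpoint kinase gene, had 12 and 30 reads on D0 and 3 and 0 on D8 (adjusted p = 0.0902).

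In the remaining lists the sums of the stages differed less as a ratio of means. Their counts stand against 1.21% higher and 0.284% lower over all circRNAs tested. TGF-β, activin and BMP genes gave 49 circRNAs that summed to 13783 and 14794 circCPM on D0 and to 13731 and 13992 on D8, and of 19 tested, 2 rose (Tgfbr2 and Bmper) and 0 fell (0 to 4 higher and 0 to 3 lower over the alternatives). Without Acvr2a, the gene with most reads there, this list summed to 12155 and 11699 circCPM on D0 and to 8397 and 9196 on D8. The 75 circRNAs of receptor tyrosine kinases and the MAPK pathway summed to 27532 and 27731 circCPM on D0 and to 34714 and 32009.8 on D8, and of 36 tested circEgfr(14-15) was the 1 that rose (0 to 4 over the alternatives). The kinase-like receptor gene Ror1 gave circRor1(2-4), with 0 and 2 reads on D0 and 26 and 29 on D8 (adjusted p = 0.0600). Of 61 tested circRNAs of actin, adhesion and matrix genes, 2 rose (Arhgap10 and Fndc3b) and 1 fell (Pdlim5), with 0 to 5 higher and 0 to 3 lower over the alternatives. This list summed to 46363 and 48066 circCPM on D0 and to 50010 and 51902 on D8. Without Arhgap10, the gene with most reads there, it summed to 35237.5 and 36181 circCPM on D0 and to 29666.5 and 29780 on D8. Of 58 of histone-modifying enzymes and remodellers, circNsd2(3-4) was the 1 that fell (0 to 1 over the alternatives), while circKmt2c(21-25) had 3 and 3 reads on D0 and 20 and 26 on D8 (adjusted p = 0.148). RNA-binding and splicing genes had 0 calls by edgeR among 27 tested (0 to 1 higher and 0 to 1 lower over the alternatives), with 1 higher and 1 lower at an unadjusted p under 0.05, although their sum was 31119 and 31414 circCPM on D0 and 23517 and 24195 on D8. Nuclear factor I, ZBTB, ZEB and similar factors had 1 call of 51 tested, which was circZbtb16(2-4) (0 to 3 higher and 0 to 2 lower over the alternatives), and their D0 libraries summed to 66058 and 44661 circCPM, a wider gap than between D0 replicate 2 and the D8 libraries. Without Nfix, the gene with most reads there, this list summed to 46762 and 33612 circCPM on D0 and to 25126 and 25833 on D8. Both D8 libraries lay below both D0 libraries in 44 of its 120 circRNAs (36.7%) and above them in 16 (13.3%). Over the whole table this held for 26.3% and 25.1%. At an unadjusted p under 0.05 there were 8 lower and 3 higher. At an unadjusted p under 0.05, 11.1% of all tested circRNAs were higher and 7.75% lower on D8.

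**Figure D3:**
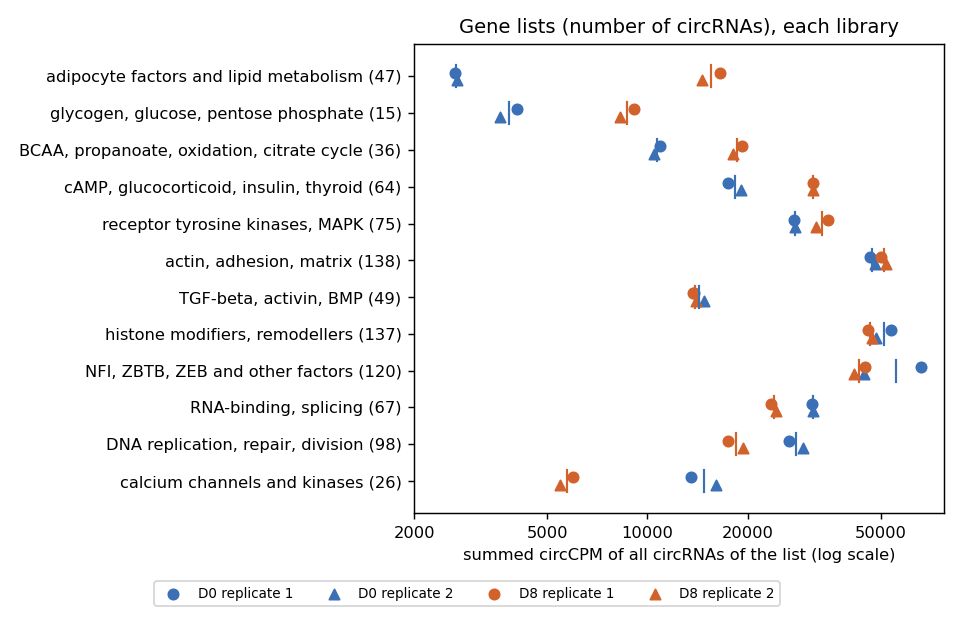
Summed circCPM of all circRNAs of each gene list (number of circRNAs in brackets) in each D0 (blue) and D8 (orange) library, on a log scale. Points are replicate 1, triangles replicate 2 and vertical bars means of 2 libraries; the lipid list has the largest upward fold between the means, from about 2675 to 15494 circCPM, and the calcium list the largest downward fold, from 14790.1 to 5729.6 circCPM, which rests on Cacna1c.

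Many genes give several circles, so the reads of all circles of a parental gene were summed and tested in the same way. Of 1108 genes tested, 72 changed (6.5%), with 50 higher on D8 (4.51%) and 22 lower (1.99%). Of the 72, 17 had a single circRNA in the table, so that their reads were those of that circRNA and only the fit differed. The 72 include 18 of the 20 parental genes of the circRNAs that changed, and 54 genes without a circRNA past the threshold of its own. Pdlim5 (adjusted p = 0.0637 on the sum) and Fndc3b (adjusted p = 0.242) did not pass. The D0 and D8 libraries of all 72 were separate, but the 72 were chosen by a low p from these same libraries. The share of separate genes among all genes tested was not counted. DESeq2 called 76 genes, 59 of them shared. Without D8 replicate 1 the count was 18, without D8 replicate 2 it was 30, and without D0 replicate 1 or 2 it was 37 and 33. Without each library in turn 9 genes passed every time (Acss3, Egfr, Cped1, Fkbp5, Cacna1c, Tgfbr2, Zbtb16, Rad18 and Mlxipl).

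In the gene fit, 3 genes of the lipid list passed whose single circles had not. Pparg encodes the master regulator of adipocyte differentiation, and its 5 circles had 0 and 0 reads on D0 and 24 and 29 on D8, at least 11.5-fold higher (adjusted p = 0.0142). Me1, the NADPH-producing malic enzyme, rose from 0 and 0 reads to 57 and 52 over 5 circles, at least 23.6-fold (adjusted p = 0.0104). Pnpla3, a lipase of lipid droplets, rose from 0 and 0 reads to 82 and 37 in its only circle (adjusted p = 0.0285 as a gene and 0.0854 as a circRNA on the same reads). Together with Acss3, Mlxipl and Selenbp1 these make 6 genes of the lipid list that rose of 15 tested, with 0 that fell, against 4.51% higher and 1.99% lower over all genes tested. As above, that list was chosen with earlier results of these data known. Ghr, the growth hormone receptor, had 0 and 5 reads on D0 and 77 and 103 on D8 over 6 circles (adjusted p = 0.0475). All 6 circles had D8 above D0, as had 25.1% of circRNAs over the whole table. Pnpla3 rested on unequal D8 libraries, and Pparg and Ghr kept their call in 9 and 6 of 12 alternatives.

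Receptor genes that passed in the gene fit include Insr, Osmr, Tgfbr3 and Acvr2a. Insr, the insulin receptor, rose from 62 and 44 reads to 198 and 175 in its only circle (log2 fold change 1.27 ± 0.31, adjusted p = 0.0451, and 0.0902 as a circRNA on the same reads). Osmr, the oncostatin M receptor, rose from 25 and 24 to 75 and 105 (1.32 ± 0.32, adjusted p = 0.0451). Within TGF-β signalling, Tgfbr3 (betaglycan) rose from 0 and 0 reads to 23 and 17 (at least 8.67-fold, adjusted p = 0.0168) and Acvr2a, an activin receptor, from 49 and 100 to 242 and 243 (1.18 ± 0.29, adjusted p = 0.0475). Over 12 alternatives Insr kept its call in 5 (adjusted p up to 0.180), Acvr2a in 4 (up to 0.180) and Osmr in 1 (up to 0.196). Ltbp1, which tethers latent TGF-β to the matrix, fell from 37 and 69 reads to 9 and 19 (-2.46 ± 0.53, adjusted p = 0.0285). Of the 14 genes of that list tested, 4 rose (Tgfbr2, Tgfbr3, Acvr2a and Bmper) and 1 fell, against 4.51% and 1.99% over all genes. Their median log2 fold change was -0.26, and of the 49 circRNAs of the list both D8 libraries lay above both D0 libraries in 12 (24.5%) and below them in 16 (32.7%), near the 25.1% and 26.3% of all circRNAs.

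Phkb, Xdh, Abca1, Ugcg and Heph also rose on the sums. Phkb went from 32 and 43 reads to 134 and 162 over 6 circles (1.43 ± 0.27, adjusted p = 0.0168). Xdh, xanthine dehydrogenase, went from 3 and 0 reads to 39 and 47, a ratio of 18.6 with an exact 95% counting interval of 6.17 to 92.1 (adjusted p = 0.0285). Abca1, the cholesterol exporter, went from 12 and 15 reads to 68 and 59 (1.69 ± 0.40, adjusted p = 0.0413). Ugcg, glucosylceramide synthase, went from 18 and 33 to 90 and 115 (1.46 ± 0.35, adjusted p = 0.0451), and Heph, a ferroxidase, from 0 and 0 to 17 and 14 (adjusted p = 0.0285). Each of these kept its stages apart, as did all 72 genes that passed, and Abca1 and Ugcg kept their call in 4 and 3 of 12 alternatives.

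Genes of genome maintenance made up part of the 22 that fell. Rad18, a ubiquitin ligase of DNA damage tolerance, had 44 and 44 reads on D0 and 0 and 0 on D8 over 3 circles, at least 45.1-fold lower (adjusted p = 0.00330). Bub1b fell from 66 and 89 reads to 3 and 20 (-3.31 ± 0.55, adjusted p = 0.0104), and Mcph1, microcephalin, from 139 and 174 to 49 and 109 (-1.55 ± 0.32, adjusted p = 0.0273). In both genes the most abundant circle was listed at 0 in D8 replicate 1 alone. circBub1b(17-19) had 50 and 54 reads on D0 and 0 and 20 on D8. circMcph1(10-12) had 86 and 86 reads on D0 and 0 and 75 on D8. The calls of Bub1b and Mcph1 were kept in 11 and 8 of 12 alternatives. Lin54, a DNA-binding subunit of the cell cycle complex DREAM, fell from 60 and 65 reads to 23 and 22 (-2.01 ± 0.33, adjusted p = 0.0104). All 4 of its circles had D8 below D0, as had 26.3% of circRNAs over the whole table. Lin54 is outside the cell division list and was picked after its values were seen. Fancl, a ubiquitin ligase of the Fanconi anaemia pathway, went the other way, from 17 and 24 reads to 62 and 80 (1.24 ± 0.31, adjusted p = 0.0489), but passed in 0 of 12 alternatives. Of the 24 genes of the cell division list tested, 3 fell and 1 rose, against 1.99% lower and 4.51% higher over all genes. Glis3 (-0.83 ± 0.21, adjusted p = 0.0489) and Zfp827 (-1.52 ± 0.38, adjusted p = 0.0475) also fell, with calls kept in 4 and 3 of 12 alternatives, and so did Dcbld2, from 297 and 148 reads to 115 and 107 (-1.56 ± 0.36, adjusted p = 0.0395). Glis3 and Zfp827 were the 2 that fell of 36 genes tested in the nuclear factor I, ZBTB and ZEB list. In that list 2 rose (Zbtb16 and Nfia), against 1.99% lower and 4.51% higher over all genes. Nfia went from 4 and 2 reads to 19 and 53 (2.96 ± 0.64, adjusted p = 0.0285) and kept its call in 8 of 12 alternatives.

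The direction of the circles of 1 gene was counted by whether the libraries of the stages overlapped, which is not a test. Of 803 genes with 2 or more circRNAs, 357 had 2 or more whose stages did not overlap, and among these all such circRNAs were higher on D8 in 114 genes and lower in 110, while 133 genes had both directions. All 6 circles of Acss3 had D8 above D0, and 7 of 8 circles of Cacna1c had D8 below D0. Of the 20 circles of Arhgap10, 13 had D8 above D0 and 1 had D8 below, and the sum rose from 335 and 384 reads to 923 and 1121 (log2 fold change 0.96 ± 0.17, adjusted p = 0.0142). Its most abundant circle, circArhgap10(14-18), had 154 and 157 reads on D0 and 301 and 353 on D8 (log2 fold change 0.54, adjusted p = 0.193). Of the 10 circles of Bckdhb, 5 had D8 above D0 and 0 below. Of all circRNAs, 25.1% had D8 above D0 in this sense and 26.3% below. Circles of 1 gene share exons and splice sites, so they are not independent of each other.

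**Figure D4:**
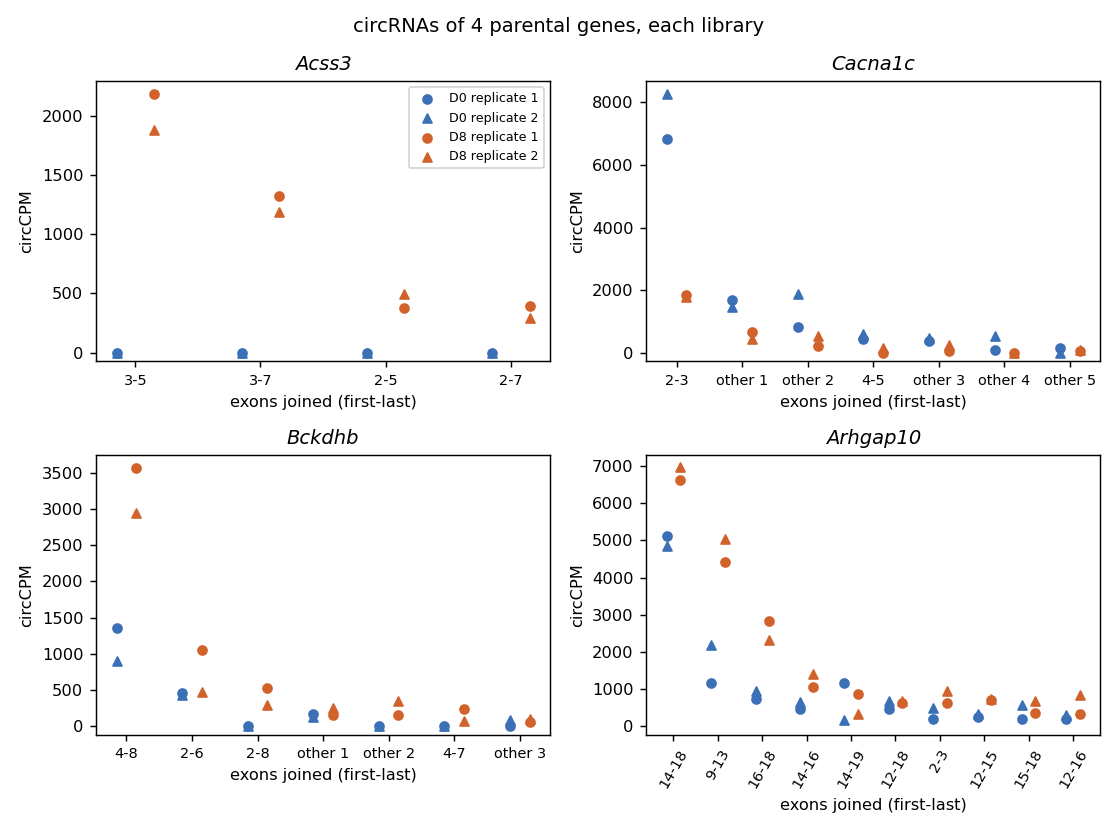
Level of the circRNAs of Acss3, Cacna1c, Bckdhb and Arhgap10 in each D0 (blue) and D8 (orange) library in circCPM on linear axes, for up to 10 circles per gene with 10 reads or more over the 4 libraries. Points are replicate 1 and triangles replicate 2, the x axis gives the exons joined ("other" marks circles without an assigned exon pair), and the circles of Acss3 stand at 0 on D0 while the leading circle of Cacna1c is the one that falls furthest.

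Whether a circle changed its share among the circles of its gene was tested over 683 circRNAs of 264 genes. By edgeR's test 0 changed their share (0% of those tested), with 34 at an unadjusted p under 0.05. The smallest p belonged to circPdlim5(4-9) (unadjusted p = 0.000710, adjusted p = 0.336). While that circle went from 44 and 18 reads to 0 and 0, circPdlim5(8-9) of the same gene, at chr3:141922094-141940965 and without overlap with it, had 12 and 14 reads on D0 (399 and 433 circCPM) and 12 and 15 on D8 (264 and 296 circCPM).

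Counting detection in place of level, 1292 circRNAs had 2 reads or more in both replicates of D0 and in both of D8. They held 76.0% and 75.7% of the reads of the D0 libraries and 74.7% and 75.1% of those of the D8 libraries. A further 1070 were detected in this sense on D8 and not on D0, and 819 on D0 and not on D8. Most of these were sparse, with a median of 12 reads over both D8 libraries for the former and 10 over both D0 libraries for the latter. With 10 reads or more in both libraries of a stage and 0 in both of the other there were 41 circRNAs of 38 genes on D8 and 8 circRNAs of 8 genes on D0. The D8 libraries were deeper than the D0 libraries, so a circRNA of equal level passes these minimums more often on D8.

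The 17 higher on D8 had a median spliced length of 362 bases and 3 exons, against 439.5 bases and 3 exons over all tested circRNAs with an exon structure. Of the 17, 7 (41.2%) began at exon 2, as did 2 of the 4 lower on D8 and 44.1% of those tested. All 21 had both ends at annotated exon ends, flanked by the AG and GT bases of canonical splice sites. Of the 17, 8 (47.1%), and 1 of the 4 carried no circBase identifier in the table, against 19.8% of those tested. The median log2 fold change was 0.46 for the 278 tested circRNAs without such an identifier and 0.00 for the 1129 with one.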

How the data were processed

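Circular RNA was sequenced after removal of rRNA and linear RNA by RNase R in SVF cells on D0, D4 and D8, with 2 libraries per stage. The authors trimmed reads with fastp, aligned them to mm9 with BWA-MEM, called circRNAs with CIRI2 and kept those that reached 2 reads in each replicate of a stage. The submitters' processing notes also name FastQC 0.11.9 and HISAT2 2.2.0. The deposited values are raw counts of back-splice reads per circRNA and library, without normalization. The table also gives a length, which was not used as a measurement.

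Ends were compared with the GENCODE annotation of NCBIM37 (mm9), with positions counted from base 1. Exon numbers follow the annotated transcript whose exons best match both ends of the circle. Ties went to protein-coding genes and then to the transcript with most exons inside the circle. Changes were tested in R 4.3.3 with edgeR 4.0.16 on all 6 libraries (stage as the only factor, TMM, filterByExpr with a minimum count of 10 and a minimum total of 15, Benjamini-Hochberg adjustment, threshold 0.05), as the contrast of D8 with D0. Reads were also summed per parental gene, and shares within genes were tested with edgeR's diffSpliceDGE. The common dispersion was 0.219 for circRNAs. D0 libraries held 30110 and 32310 reads and D8 libraries 45371 and 50672.

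Alternatives were RLE factors, column totals, DESeq2 1.42.0, other filters, only the D0 and D8 libraries, a replicate block, robust fitting, removal of isolated zeros and each library left out, where a lone library is assumed to vary like the others. Named are all circRNAs past the threshold, the 5 next in each direction, the 5 most abundant, up to 2 per gene list with the lowest p, and some of the parental genes past the threshold. Values of a list without its gene of most reads were added after seeing the data. The comparison and gene lists were chosen with earlier results of these data known. The authors' mRNA data and qPCR were not used here.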

Additional observations from a re-analysis of the deposited data

How the results depend on the processing

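For single circRNAs, 21 passed in the main setting. DESeq2 gave 51 (35 higher, 16 lower), a mean of 20 counts or more 41 (26 and 15), removal of isolated zeros 89 (59 and 30), and the D0 and D8 libraries alone 0 (0 and 0). Leaving out each library gave 11 to 27 (8 to 22 higher, 3 to 12 lower). For parental genes no filter gave 40 (30 and 10), the D0 and D8 libraries alone gave 34 lower, and leaving out each library gave 18 to 57 (12 to 43 higher, 6 to 16 lower). The share test made 1 call without a filter, and 0 to 1 with a library left out. A minimum of 5 reads in each replicate left 782 circRNAs on both days and 374 on D0 and not on D8. With 2 reads in either replicate there were 2481 on both, 604 on D8 and not on D0, and 432 on D0 and not on D8. The cause of these differences was not tested.

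Deviations of same-numbered libraries from their stage means had a correlation of 0.0698 between D0 and D8 (0.0352 and 0.0470 with D4), positive in each case. Counting error in sparse circRNAs lowers such correlations, so they cannot show whether libraries of equal number were paired, and the labels do not say. With a replicate block 4 circRNAs passed (3 higher, 1 lower) and 65 parental genes.

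The direction turned in 4 cases, all of circRNAs that were not called. Leaving out each library in turn gave log2 fold changes from -0.012 to 0.85 for circNfix(2-2) (below 0 without D0 replicate 2), from -0.0098 to 0.46 for circHipk3(2-2) (below 0 without D8 replicate 1), and from -0.90 to 0.27 for circPrdm16(2-2), from a marker gene of brown and beige adipocytes (above 0 without D0 replicate 1, and 0.13 without D8 replicate 1). The call of circEgfr(14-15) rests on 11 to 187 reads per library and that of circBmper(3-6) on 0 to 26.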

Other observations

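Several circRNAs outside the gene lists stood at 0 reads in both D0 libraries and at 10 reads or more in both D8 libraries without passing edgeR's threshold. They were picked by this rule after their values were seen. circNox4(7-14), from the gene of a NADPH oxidase, had 18 and 32 reads on D8 (adjusted p = 0.107). circSoat2(7-10), from a cholesterol esterification enzyme gene, had 18 and 28 reads on D8 (adjusted p = 0.148), and circScn7a(2-4), from a sodium channel gene, had 14 and 35 (adjusted p = 0.146). circRalgapa2(20-24), from a gene of a Ral GTPase-activating complex, had 26 and 28 reads (adjusted p = 0.0600). In the other direction circPxdn(2-3), from the gene of the matrix enzyme peroxidasin, had 17 and 17 reads on D0 and 0 and 0 on D8 (adjusted p = 0.126), and circDepdc5(33-37), from a gene of the GATOR1 complex, had 14 and 23 reads on D0 and 0 and 0 on D8 (adjusted p = 0.115).

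Parental genes outside the lists also passed on summed reads, in both directions, and those given here were picked after their values were seen. Mitf, a transcription factor gene, went from 6 and 5 reads on D0 to 48 and 58 on D8 (log2 fold change 2.69 ± 0.64, adjusted p = 0.0438) and Tle1, a Groucho family corepressor, from 12 and 9 to 53 and 62 (1.89 ± 0.41, adjusted p = 0.0285). Both kept their call in 7 of 12 alternatives. Nrf1, also a transcription factor gene, had 18 and 8 reads on D0 and 0 and 0 on D8 (adjusted p = 0.0489), and kept its call in 2 of 10 alternatives. Trio, a guanine nucleotide exchange factor, fell from 28 and 17 reads to 5 and 4 (-2.83 ± 0.69, adjusted p = 0.0451, past the threshold in 3 of 12 alternatives). All 4 of its circles had D8 below D0, as had 26.3% of circRNAs over the whole table.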
